A study of Schizosaccharomyces pombe with 3 samples.

Results

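Genes of iron uptake, ferrichrome synthesis and iron regulation were followed in the slow RNA polymerase II mutant of fission yeast, in all 9 of the 7049 genes in the deposited count table. They were chosen by identifier, from what their products do: the siderophore transporter genes *str1* (SPBC4F6.09) and *str3* (SPAC1F8.03c), the iron permease gene *fip1* (SPAC1F7.07c), the ferroxidase gene *fio1* (SPAC1F7.08), the ferric reductase gene *frp1* (SPBC1683.09c), the ferrichrome synthesis genes *sib1* (SPAC23G3.02c) and *sib2* (SPAC23G3.03), and the regulator genes *fep1* (SPAC23E2.01) and *php4* (SPBC16E9.01c). The choice was made with earlier results of these data known. From these same libraries the study had reported iron assimilation as a category enriched among down-regulated genes. The shares of called genes given below are thus a description and no independent evidence. All 9 were found in the table and passed the filter on low counts. RNA-seq of ribosome-depleted total RNA was made from 2 independent *rpb1-N494D* clones, slow #1 (strain FBY2324) and slow #2 (FBY2325), and from 1 library of the parental wild type (FBY2323). All 3 strains are of mating type h-, carry the alleles ade6-M216, leu1-32, ura4-D18 and his3-D1, and lack the fluoride exporter genes *fex1* and *fex2* by label, so the wild type here is the parent of the edited clones and not a strain without mutations. The mutation, made by genome editing, replaces an asparagine of Rpb1, the large catalytic subunit of RNA polymerase II (RNAPII). The study calls the mutant enzyme slow, from the matching substitution in budding yeast, which lowers the elongation rate. What the clones share from editing and selection cannot be told apart from the mutation. Cells were in mid-log phase in EMM, a defined minimal medium, with adenine, histidine, leucine and uracil added.

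Fission yeast takes up iron by a reductive and a siderophore route. In the reductive route Frp1 reduces ferric iron at the cell surface, and a complex of the multicopper ferroxidase Fio1 and the permease Fip1 oxidizes it again and carries it in. In the other route Str transporters import iron bound to siderophores such as ferrichrome, which the cells make themselves with Sib2, an ornithine hydroxylase, and Sib1, a peptide synthetase. When iron is plentiful the GATA-type repressor Fep1 keeps the uptake genes and *php4* low, and when iron is scarce Php4 joins the CCAAT-binding Php complex and represses genes that use iron.

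The binding motifs of these regulators were searched in the members' promoters, taken as 250 bases before to 50 bases after the annotated gene start, in RefSeq's annotation of the ASM294v3 assembly. A GATA motif, AGATAA or TGATAA on either strand, lies in the window of 6 of the 9 genes (*str1*, *fip1*, *fio1*, *frp1*, *fep1* and *php4*), and in 44.1% of the windows of all 5112 protein-coding genes. Of these 6, 5 (all but *fep1*) have it in the longer form ATCAGATAA or ATCTGATAA, searched on both strands after the shorter matches had been seen and overlapping them, a form found in 1.15% of all windows. The genes *fip1* and *fio1* are divergent and share 1 such match. The following stretches show these longer matches in capitals with 10 bases on each side, so that the shared letters can be compared. A match did not go with the level throughout: *str3*, with the third lowest fold change of the 9, has none, and *php4* has one and was not lower in the clones with TMM scaling. The matches are a description of the sequence and no evidence of binding.
*str1* (chrII:2704640-2704668, plus strand): gctgccgaccATCAGATAAttcttatttt
*frp1* (chrII:162470-162498, minus strand): aatttggttgATCTGATAAcgcatcaaga
*fip1* and *fio1* (chrI:4234826-4234854, plus strand, the direction of *fio1*): tctggattacATCTGATAActtttgtcca
*php4* (chrII:1916884-1916912, minus strand, motif on the opposite strand): tcgtatctctTTATCAGATtaaaacaaac

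By distance from the gene start, the longer match begins at base -7 in *str1*, -96 in *frp1*, -76 in *fip1*, -236 in *fio1* and -10 in *php4*, counted in the direction of each gene. Only *str3*, *sib1* and *sib2* have no GATA motif of these letters in the window, which says nothing about sites farther away. CCAAT, the motif of the Php complex, was found on either strand in the windows of 4 of the 9 genes, *fip1*, *fio1*, *fep1* and *php4*, against 42.2% of all windows. The gene starts of RefSeq and of the deposited table are not the same for every member, and the distances follow RefSeq. By the deposited starts, 2704645 for *str1*, 162497 for *frp1* and 1916974 for *php4*, the longer matches of these genes lie inside the gene and not before it. The match of *fip1* and *fio1* lies before both genes by either annotation.

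**Figure D1:**
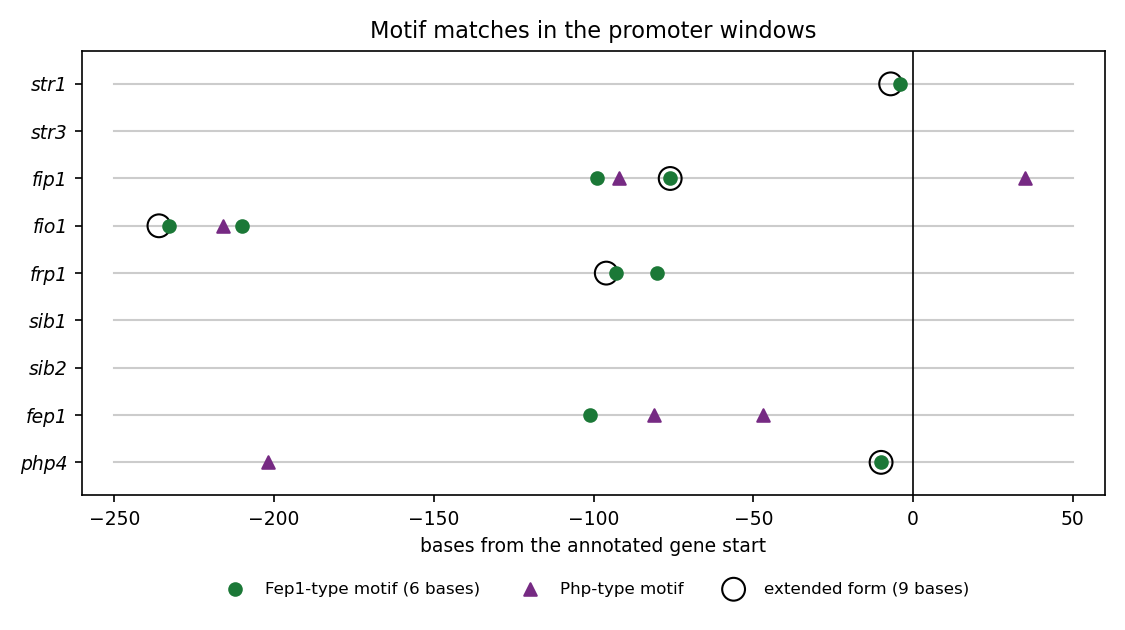
Positions of motif matches in the promoter windows of the 9 iron genes, in bases from the gene start annotated by RefSeq, negative values lying before it. By the deposited starts the longer matches of *str1*, *frp1* and *php4* lie inside the gene. Circles are GATA motifs of 6 bases, triangles CCAAT motifs of the Php complex and open rings the longer form of 9 bases, which is seen in *str1*, *fip1*, *fio1*, *frp1* and *php4*.

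The libraries hold 40746838 (slow #1), 30674459 (slow #2) and 31803128 (wild type) counted fragments. Differences were tested over 6418 genes with the quasi-likelihood test of edgeR, and a gene was called at a Benjamini-Hochberg adjusted p (FDR) under 0.01 with a fold change above 1.5, the study's thresholds. The study applied these thresholds in DESeq2 and not in edgeR. DESeq2 was run here as an alternative. With 1 wild-type library, the fit takes its variation to equal that between the clones, and the p-values hold nothing on how wild-type cultures vary. As a check of the labels, *ura4* had 0 counts in all 3 libraries. The rows of *fex1*, *fex2* and *his3* were not empty, with 244 to 714 counts, and it was not tested whether these reads come from parts of the genes outside the deletions. The M-cell genes *mfm2* and *mam2*, which mark mating type h-, were higher in the clones at an FDR under 0.05, with 753 and 636 RPKM for *mfm2* in slow #1 and slow #2, against 369 RPKM in the wild type, and 110 and 99.7 RPKM for *mam2*, against 48.7 RPKM. The P-cell genes *map2* and *map3* stayed between 6.06 and 11.9 RPKM in all libraries. With 525 to 1723 counts they were low but not absent, so they do not check the mating type by absence. Whether the difference in *mfm2* and *mam2* bears on the iron genes was not tested. CPM is the count per 1e6 fragments after TMM scaling, and RPKM is CPM per kilobase of exon.

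Of the 9 genes, the 5 that take iron up were all read lower in slow #1 and slow #2 than in their parent, 1.52- to 3.13-fold by the mean of the clones, and the siderophore synthesis genes were not. The siderophore transporter gene *str2*, not among the 9, was read higher than the wild type in slow #1 and lower in slow #2. The repressor gene *fep1* was read slightly lower, and *php4* was slightly higher with the main scaling and level with the wild type under scaling to the 3 control genes *nda2*, *act1* and *fba1*. At an FDR under 0.01 in edgeR, 1 of the 9 genes fell, *str1*, where 0.390% of all genes tested were called lower. None rose in edgeR, against a background of 0.312%. None was called higher in DESeq2 either, against 5.0% of all genes (321 of 6418). At p under 0.05 before adjustment 6 were lower (*fep1* and *str3* besides those named next), which 17.9% of all genes were, and 1 was higher (*sib2*), which 17.5% were. At the wider FDR under 0.05, 4 of the 9 were called lower (*str1*, *frp1*, *fip1* and *fio1*) against 5.59% of all genes, and 0 higher against 6.79%. The DESeq2 Wald test at 0.01 called *str1* and *frp1*, 2 of 9, against 3.65% of all genes. Over the 5 uptake genes the median log2 fold change came to -1.38, which is the value of *str3*, and over all 9 to -0.61, beside 0.010 for all genes tested. The median of the uptake genes was -1.66 in slow #1 alone and -0.89 in slow #2 alone.

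**Figure D2:**
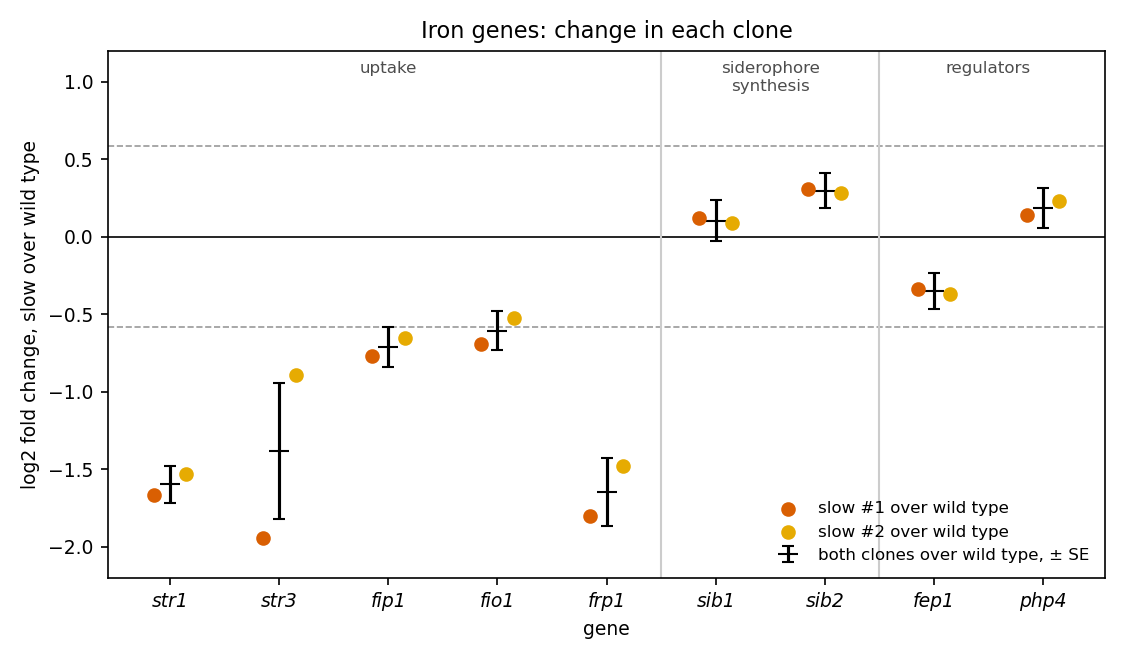
Log2 fold change of each iron gene over the wild type, in slow #1 and slow #2 (points) and for both clones together with its standard error (SE) from edgeR (bars). Dashed lines mark 1.5-fold, beyond which *str1*, *str3*, *fip1* and *frp1* lie in both clones, and *sib1*, *sib2* and *php4* lie above 0 with this scaling, of which *sib1* and *php4* fall just below 0 under scaling to the 3 control genes.

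The transporter gene *str1* is a plus-strand gene of 1 exon on chromosome II, at 2704645 to 2707648 in the ASM294v2 assembly used for the counts. It was counted 2512 times in slow #1 and 1993 times in slow #2, against 6151 times in the wild type. Scaled to library size this was 60.7 and 66.4 CPM in the clones and 192 CPM in the wild type, so that both clones lie far below the wild type and close to each other, at 0.330 of its level on average. Its log2 fold change was -1.60 (SE 0.117, edgeR FDR 0.00441), with -1.66 in slow #1 and -1.53 in slow #2. By p, *str1* was number 10 of the 6418 genes tested. With RLE size factors, under which no gene at all was called, its FDR was 0.0130.

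The ferric reductase gene *frp1*, on chromosome II from 160357 to 162497, had the lowest fold change of the 9. It was read at 4.52 and 5.67 CPM in slow #1 and slow #2, against 15.9 CPM in the wild type. These levels rest on 187, 170 and 508 counts, and the counting intervals of the clones, at most 6.58 CPM (exact Poisson, 95%), stay below that of the wild type, which begins at 14.5 CPM. The log2 fold change stood at -1.65 (SE 0.222), and the FDR was 0.0122 in edgeR, just above 0.01, but 4.58e-05 in DESeq2. Only 34 of the genes tested had a lower fold change. The next gene upstream, *pcl1*, which encodes a transporter that stores iron in the vacuole, stood at -0.065 (SE 0.150, edgeR FDR 0.780), with 363 and 421 CPM in the clones and 410 CPM in the wild type, which lies between them.

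The divergent pair *fip1* and *fio1*, whose products work as 1 complex, lies on chromosome I with 319 bases between the genes. The permease gene *fip1* was read at 34.8 and 37.8 CPM in slow #1 and slow #2 and at 59.4 CPM in the wild type. The ferroxidase gene *fio1* was read at 121 and 136 CPM in the clones and at 195 CPM in the wild type. For both genes the clones are close to each other and below the wild type. The log2 fold changes were -0.71 (SE 0.130, edgeR FDR 0.0233) for *fip1* and -0.61 (SE 0.125, edgeR FDR 0.0298) for *fio1*. Neither passes 0.01, and in DESeq2 they stand at 0.0102 and 0.0142. The change of *fio1* is the one closest to the fold threshold, with -0.69 in slow #1 beyond 1.5-fold and -0.53 in slow #2 within it. The ratio of *fip1* to *fio1* in RPKM was 0.456 and 0.442 in the clones and 0.482 in the wild type, so the pair kept nearly the same proportion.

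The second siderophore transporter gene, *str3*, on chromosome I from 88201 to 90300, was the least expressed of the 9. It had 50 counts in slow #1, 77 in slow #2 and 154 in the wild type. In CPM, with exact Poisson intervals of 95% that cover counting error only, this was 1.21 (0.896 to 1.59) and 2.57 (2.03 to 3.21) in the clones and 4.81 (4.08 to 5.64) in the wild type. Both clones lie below the wild type beyond counting error, but they also differ from each other beyond it. The log2 fold change of -1.38 has an SE of 0.437, and the FDR was 0.0771 in edgeR and 0.0944 in DESeq2. It was -1.94 in slow #1 and -0.89 in slow #2, a gap between the clones larger than that of 98.9% of all genes tested.

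The siderophore synthesis genes *sib1* and *sib2* did not pass the test in either direction. The gene *sib1* has 2 exons between 854453 and 869704 of chromosome I and is the longest of the 9. It was read at 375 and 367 CPM in slow #1 and slow #2 and at 345 CPM in the wild type, a log2 fold change of 0.10 (SE 0.131, edgeR FDR 0.598) that turns to -0.077 under scaling to the 3 control genes. For *sib2*, whose start lies 1035 bases from that of *sib1* on the opposite strand, the values were 99.0 and 97.5 CPM in the clones and 79.9 CPM in the wild type. Its log2 fold change was 0.30 (SE 0.115, edgeR FDR 0.123), above 0 in both clones and under every scaling tried, and it does not pass the test. The clones differed by 0.029 and 0.023 on the log2 scale for *sib1* and *sib2*. The ratio of *sib2* to *sib1* in RPKM was 2.02 and 2.03 in the clones and 1.77 in the wild type.

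The regulators showed small differences. The repressor gene *fep1*, on chromosome I from 442201 to 445721, was read at 158 and 155 CPM in slow #1 and slow #2 and at 200.04 CPM in the wild type. Its log2 fold change was -0.35 (SE 0.116, edgeR FDR 0.0849), within 1.5-fold in both clones. For *php4*, on chromosome II from 1915375 to 1916974, the values were 46.5 and 49.7 CPM in the clones and 42.3 CPM in the wild type. Its log2 fold change of 0.19 (SE 0.131, edgeR FDR 0.347) becomes -0.00027 under scaling to the 3 control genes. In RPKM, *fep1* stood at 1.55 and 1.42 times *php4* in the clones and at 2.15 times in the wild type. RNA levels do not show the activity of either protein, which depends on iron.

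For 6 of the 9 genes both clones lie below the wild type, against 42.6% of all genes tested, and for the other 3 both lie above it, against 42.7%. Beyond 1.5-fold in both clones there are 4 lower genes (*str1*, *str3*, *fip1* and *frp1*), against 5.75% of all genes, and 0 higher, against 9.08%. In slow #1 alone 5 were lower by that fold (*fio1* in addition), against 7.82% of all genes, and 0 higher, against 12.0%. In slow #2 alone 4 were lower, against 9.55%, and 0 higher, against 13.5%. The median gap between the clones was 0.118 on the log2 scale over the 9 genes and 0.132 over all genes tested.

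**Figure D3:**
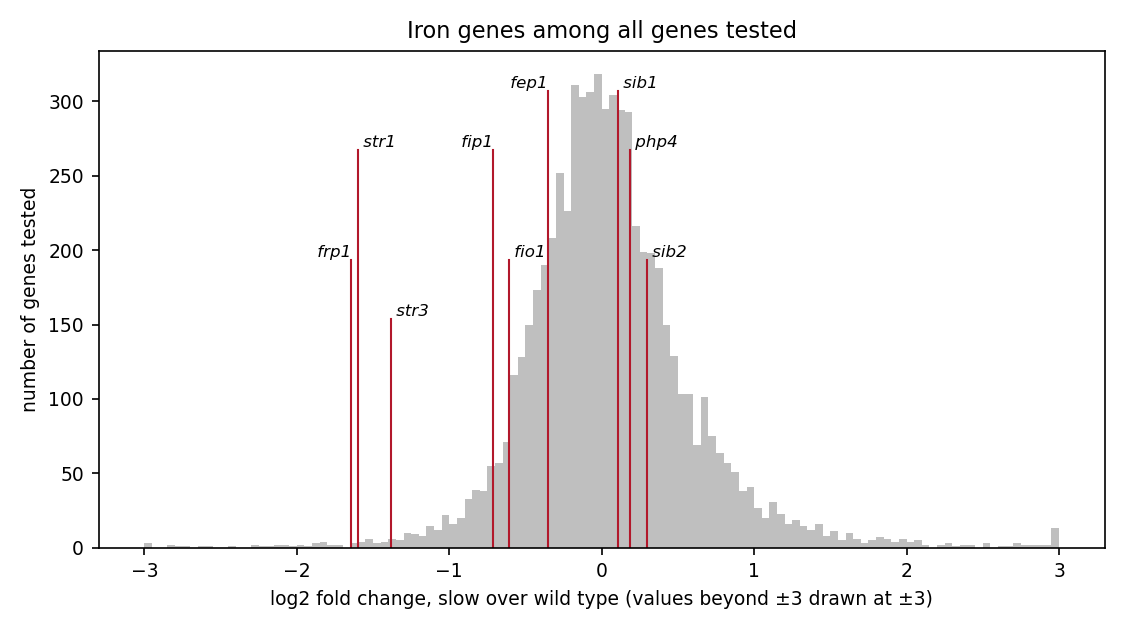
Number of genes by log2 fold change over the wild type, for the 6418 genes tested, with the 9 iron genes as lines whose heights have no meaning. The genes *frp1*, *str1* and *str3* lie in the lower tail at -1.65, -1.60 and -1.38, and *sib1*, *php4* and *sib2* lie close to the center at 0.10, 0.19 and 0.30.

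Levels of different genes were compared per length of exon. In the wild type, *fio1* was the highest of the 9 at 69.9 RPKM, followed by *str1* at 64.0, *fep1* at 56.8, *sib2* at 40.7, *fip1* at 33.7, *php4* at 26.4 and *sib1* at 22.97. The reductase gene *frp1* and *str3* were far lower, at 7.42 and 2.29 RPKM. In the slow clones *sib2* came first, at 50.1 ± 0.56 RPKM (SD, n = 2), followed by *fio1* at 45.9 ± 3.68, *fep1* at 44.5 ± 0.62, *php4* at 30.1 ± 1.40 and *sib1* at 24.7 ± 0.35. Below them were *str1* at 21.2 ± 1.35, *fip1* at 20.6 ± 1.19, *frp1* at 2.38 ± 0.380 and *str3* at 0.899 ± 0.457. In the clones *fio1* and *fep1* do not differ beyond their spread and change places between slow #1 and slow #2, and *str1* and *fip1* do not either. The transporter gene *str1* thus took place 6 in both clones and place 2 in the wild type, while *sib2* took place 1 in both clones and place 4 in the wild type. In slow #2 the lead of *sib2* over *fio1* was narrow, at 49.7 against 48.5 RPKM. The wild-type order has no replicate check.

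**Figure D4:**
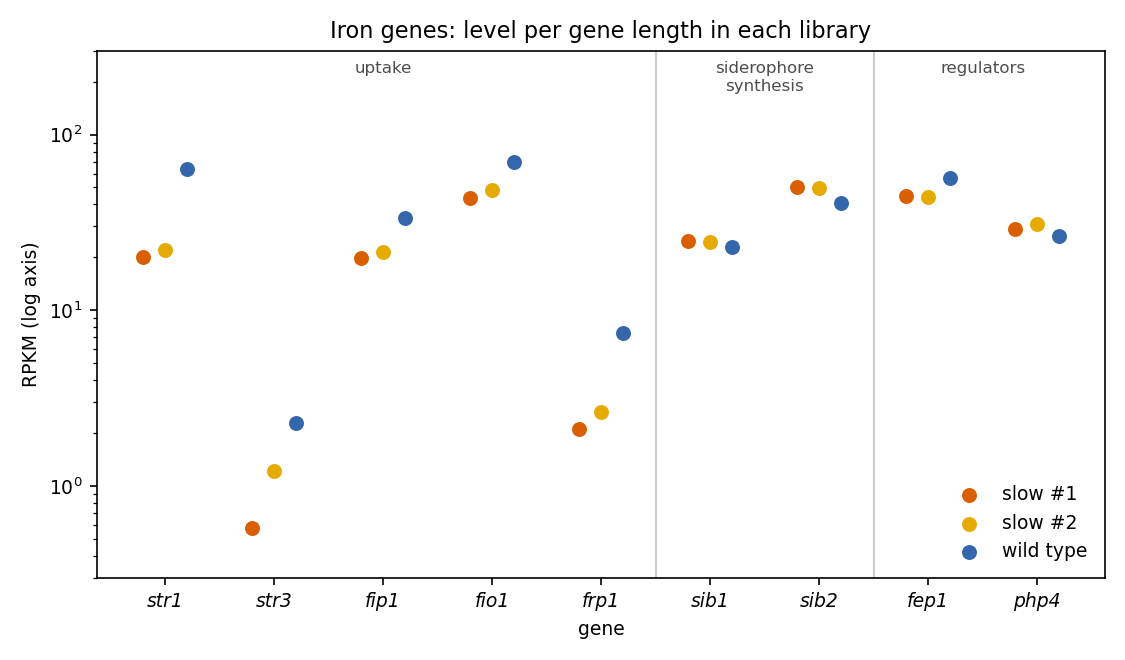
RPKM of the 9 iron genes on a log axis, 1 point per library, with slow #1, slow #2 and the wild type from left to right for each gene. The wild-type point lies above both clones for *str1*, *str3*, *fip1*, *fio1*, *frp1* and *fep1*, and below them for *sib1*, *sib2* and *php4*, though the fold change of *sib1* and *php4* falls just below 0 under scaling to the 3 control genes.

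Other genes of iron handling were taken from 6 lists, of which no member was called at an FDR under 0.01 in edgeR. The counts of each list stand beside these shares of all genes tested. In edgeR 17.9% were lower and 17.5% higher at p under 0.05 before adjustment, and 5.59% and 6.79% at an FDR under 0.05. In DESeq2 at 0.01 the shares were 3.65% and 5.0%. In lists this short, counts of a few genes can lie near such shares. The 7 other genes of iron and heme acquisition had a median log2 fold change of -0.16, of which 2 were lower and none higher at p under 0.05 before adjustment, and none was called in DESeq2. Among them were the transporter gene *fet4* at -0.64 (edgeR FDR 0.0590), the second reductase gene *frp2* at -0.49, the vacuolar transporter gene *abc3* at -0.31 and the siderophore synthesis gene *sib3* at -0.16. The siderophore transporter gene *str2*, named for its likeness to *str1* and *str3*, stood at 0.054 (edgeR FDR 0.836). It was read at 152 and 121 CPM in slow #1 and slow #2 and at 131 CPM in the wild type, which lies between them. The heme uptake gene *shu1*, named for its low counts after they were seen, had 11 and 15 counts in the clones and 3 in the wild type.

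The 7 partners of the iron regulators had a median of 0.24, of which 3 were higher and none lower at p under 0.05 before adjustment, and none was called in DESeq2. The glutaredoxin gene *grx4*, whose product binds Fep1 and Php4 and conveys the iron state to them, was read at 265 and 280 CPM in slow #1 and slow #2, against 187 CPM in the wild type. Its log2 fold change was 0.55 (edgeR FDR 0.0404), with 0.51 in slow #1 and 0.59 in slow #2. The gene *fra2*, which encodes a partner of Grx4, stood at 0.51, the Php complex gene *php3* at 0.36 and the corepressor gene *tup12* at 0.24.

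Genes of Fe-S cluster assembly had a median of 0.29 over 10 members (0.14 in slow #1 alone and 0.18 in slow #2 alone), of which 1 was lower and 4 higher at p under 0.05 before adjustment, with 2 called higher at an FDR under 0.05 and 1 of these in DESeq2 at 0.01. That gene, *nfs1*, encodes the cysteine desulfurase that supplies the sulfur. It was read at 795 and 1124 CPM in slow #1 and slow #2, against 442 CPM in the wild type, a log2 fold change of 1.12 (edgeR FDR 0.0329). The scaffold-related gene *isa1*, the other called at 0.05, stood at 0.61, *isd11*, a partner of the desulfurase, at 0.57 and the ferredoxin gene *etp1* at -0.51.

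The 18 iron- and heme-using enzymes had no common direction, with a median of -0.020 and with 4 lower and 3 higher before adjustment, 2 lower and 2 higher at an FDR under 0.05, and 2 lower and 1 higher in DESeq2. The succinate dehydrogenase gene *sdh2*, for the Fe-S subunit, was read at 587 and 641 CPM in slow #1 and slow #2 and at 280 CPM in the wild type, a log2 fold change of 1.13 (edgeR FDR 0.0121). The gene listed here as *sdh4*, named *tim18* by RefSeq, stood at -1.03, the glutamate synthase gene *glt1* at -0.76 and the sulfite reductase gene *sir1* at 0.67. The difference of *sir1* does not pass the test (edgeR FDR 0.184) and was 0.27 in slow #1 and 0.98 in slow #2. Of the 8 genes listed for heme synthesis, all had a log2 fold change below 0, with a median of -0.42, 5 lower before adjustment, 2 called lower at an FDR under 0.05 and 1 in DESeq2. The largest difference was that of *hem2*, which encodes aminolevulinate dehydratase, with 159 and 158 CPM in slow #1 and slow #2 and 334 CPM in the wild type, a log2 fold change of -1.08 (edgeR FDR 0.0102). The ferrochelatase gene *hem15*, whose product inserts iron into heme, stood at -0.63, and *hem3* and *ups1* at -0.49 and -0.42. The gene *ups1* (SPAP8A3.10, 638 bases of exon) was listed by its symbol, and whether it encodes a heme synthesis enzyme was not checked. It is 1 of the 5 lower before adjustment and is not among the 2 called at an FDR under 0.05.

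Copper and zinc transport genes were included because Fio1 is a copper enzyme. Their median was -0.13 over 8 members, with 2 lower before adjustment and 1 called lower at an FDR under 0.05 and in DESeq2, the copper chaperone gene *atx1*. It was read at 67.4 and 68.4 CPM in slow #1 and slow #2 and at 126 CPM in the wild type, a log2 fold change of -0.89 (edgeR FDR 0.0109). The zinc regulator gene *loz1* stood at -0.31 and the copper transporter genes *ctr6* and *ctr4* at -0.23 each, without passing the test. No list was compared with other genes by a set test.

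**Figure D5:**
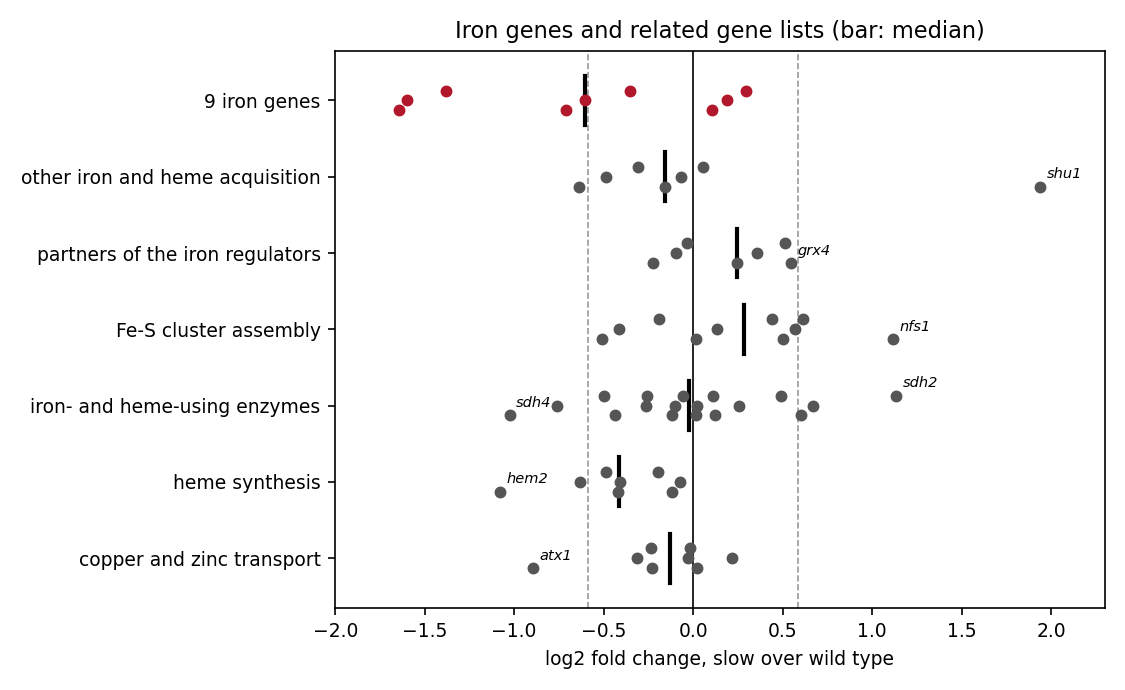
Log2 fold change over the wild type of the 9 iron genes and of the members of 6 related lists, 1 point per gene, with the median of each list as a bar and 1.5-fold as dashed lines. The 9 iron genes have a median of -0.61, heme synthesis -0.42, and Fe-S cluster assembly 0.29, all relative to TMM scaling.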

How the data were processed

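The authors trimmed reads with Trimmomatic 0.36, mapped them with STAR 2.5.1 to the ASM294v2 genome, and assigned read pairs to genes by strand in featureCounts (version not stated). They tested differences between strains with DESeq2 1.24. The deposited values are raw counts, not normalized, 1 column for each of the 3 libraries. Another deposited column holds the exon length of each gene in bases.

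The main test was the quasi-likelihood test of edgeR 4.0.16 in R 4.3.3, after filterByExpr (count of 10, total of 15) and TMM, with Benjamini-Hochberg adjustment over all genes tested. The common dispersion was 0.0124. An SE is the absolute log2 fold change over the square root of F. Values of a single clone use log2 CPM and a prior count of 2. The Wald test of DESeq2 1.42.0 was an alternative. Names were matched through RefSeq (ASM294v3), for every gene listed.

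The 9 genes and the lists were chosen with earlier results of these data known. Of each list without a call, the up to 4 genes with the largest change and a mean count of at least 100 are named. TMM assumes that most genes do not change, and counts cannot show a change in RNA per cell.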

Additional observations from a re-analysis of the deposited data

How the results depend on the processing

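The count of 1 lower gene of 9 changed with the test and threshold. It was 0 with RLE size factors (2205 genes at an unadjusted p under 0.05 and none called over the whole table), 2 with DESeq2 (234 lower and 321 higher over the whole table), 2 without the filter on low counts (129 lower and 127 higher), 2 when libraries were scaled to the summed counts of *nda2*, *act1* and *fba1*, and 4 at an FDR under 0.05. It was 5 when scaled to the geometric mean of those genes, an alternative chosen after seeing the data because *fba1* makes up most of the sum. Without slow replicate 1 or 2, which leaves 1 library against 1 and no test, 4 to 5 genes were more than 1.5-fold lower and 0 higher. Of the 6418 genes tested 613 were lower and 868 higher by that fold without slow replicate 1, and 502 lower and 768 higher without slow replicate 2. The count of higher genes stayed at 0 throughout. Under TMM scaling *nda2*, *act1* and *fba1* themselves stood at 0.11, 0.32 and 0.15, with *fba1* at -0.076 in slow #1 and 0.35 in slow #2. None of them passed the test. Scaling to these genes moved the median of all genes by -0.18 (sum) and -0.19 (geometric mean), and the calls over the whole table to 39 lower and 18 higher and to 611 lower and 187 higher, against 25 and 20 with TMM. With it *sib1* turned to -0.077 and -0.082, and *php4* to -0.00027 and -0.0021. Over 10 alternatives *str1* stayed between -1.79 and -1.53 and *frp1* between -1.84 and -1.48, with adjusted p up to 0.0130 and 0.0231. No paired analysis was possible because the wild type has 1 library and the clones share no number with it. For *str3*, depth and the gap between the clones limit what can be said.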

Other observations

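Among the annotated neighbours of the 9 genes, the noncoding RNAs SPNCRNA.604 and SPNCRNA.605 lie upstream of *str3*, on its own strand and on the opposite strand, and were named after their values were seen. SPNCRNA.605 was read at 10.5 and 10.8 CPM in slow #1 and slow #2 and at 22.9 CPM in the wild type, a log2 fold change of -1.11 with an FDR of 0.0158 in edgeR and 0.00105 in DESeq2. SPNCRNA.604 had 26 and 14 counts in the clones and 64 in the wild type, a log2 fold change of -1.84 with an FDR of 0.0356 in edgeR and 0.117 in DESeq2. In the deposited coordinates SPNCRNA.605 lies 648 bases and SPNCRNA.604 380 bases from the start of *str3*. Whether these transcripts and *str3* are connected was not tested. Neighbours of members that did not pass the test differed as well. The snoRNA gene *snR42*, upstream of *php4*, stood at 0.93, with an FDR of 0.0575 in edgeR and 6.39e-05 in DESeq2. SPAC23G3.05c, downstream of *sib2*, stood at -0.68, with an FDR of 0.0262 in edgeR and 0.0121 in DESeq2.

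Outside the 9 genes, 54 genes tested have ATCAGATAA or ATCTGATAA in the promoter window. Their median log2 fold change was -0.061. At an FDR under 0.05 in edgeR, 1 was lower (*srb11*, 1.85%) and 3 were higher (5.56%), and in DESeq2 0 were lower and 1 higher. Of all genes tested, 5.59% were lower and 6.79% higher at that FDR in edgeR, and 3.65% and 5.0% in DESeq2. Genes with the longer match outside the 9 were thus not called lower more often than all genes.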
